A study of Mus musculus with 45 samples.

Results

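Islets of Langerhans from NZO/HlLtJ male mice were compared between 2 diets, across all genes. The libraries are those whose titles name NZO/HlLtJ and carry the letter M; the labels give their sex as male. They comprise 3 libraries from mice on 44% fat + fiber and 3 from mice on 10% fat + fiber, 6 of the 45 libraries in the series. The study sequenced polyA RNA from islets of male and female mice of 3 inbred strains, NZO/HlLtJ, C57BL/6J and CAST/EiJ. Its design names the diets as a control diet and a diet high in fat and sugar. Every animal began its diet at week 6 of age and tissue was taken at week 16. The groups used are NZO/HlLtJ males on 10% fat (3 libraries) and on 44% fat (3), NZO/HlLtJ females on each diet (4 and 4) and C57BL/6J males on each diet (4 and 4). All carry the genotype WT and the treatment None, so the groups compared differ in strain, sex or diet and in no transgene or agent. Blood glucose and body weight were not analysed here.

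Pancreatic islets are small clusters of hormone-secreting cells, most of them beta cells, which release insulin when glucose enters through the transporter GLUT2 (Slc2a2) and its breakdown closes potassium channels that depend on ATP. NZO mice carry many risk alleles for obesity and diabetes, and males of the strain are known to lose beta cell function on diets that combine fat with carbohydrate. Stressed beta cells are known to lower the genes that mark their mature state and to express genes that are normally kept silent in them, while immune cells and fibroblasts can gather around the islet.

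The NZO male libraries held 77972575 to 90624632 estimated counts, within the 57203768 to 109950216 of all 45. Levels below are in CPM, each gene's count brought to a common library total and scaled by TMM, a factor that corrects for the makeup of each library, and per-library values are given in the order of replicates 1, 2 and 3. Defining markers of beta, alpha, delta, acinar, duct, endothelial, immune, fibroblast, Schwann and lymph node stroma cells were all above 0 in each of the 6 libraries. The lowest was Cxcl13, of lymph node stroma, at 0.0328 CPM, and at this depth a level above 0 does not show which cells were present. Ins2 of beta cells ran from 28604 to 95698 CPM, Gcg of alpha cells from 6237 to 16456 CPM and Cpa1 of acinar cells from 3358 to 12719 CPM. Ddx3y, a gene of the Y chromosome, ran from 44.4 to 65.7 CPM, as the male label requires. Nnt, which carries a deletion in C57BL/6J, ran from 55.2 to 99.4 CPM.

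Replicate 3 on 44% fat stood apart from the other libraries. Xist, the RNA of the inactive X chromosome of females, was 0.928, 0.0442 and 0.114 CPM on 10% fat and 0.351, 0.344 and 15.4 CPM on 44% fat. Each of 14 genes that CAST/EiJ islets express and NZO/HlLtJ islets do not was taken as a percent of its mean level in CAST/EiJ libraries. The median over these genes was 1.73% in this library and 0.0328% to 0.193% in the other 5. For 4 such genes of C57BL/6J it was 0.954% against 0.155% to 0.353%, but 2 of these 4 are also among the 14, and CAST/EiJ libraries themselves stood at 21.3% to 33.2% of the C57BL/6J level, so this is no separate sign of a second strain. Markers of CAST/EiJ and of females were thus present at trace level in this library, and results are given with and without it.

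Insulin transcripts took a smaller share of the reads on 44% fat and digestive enzyme transcripts a larger one. Ins1 and Ins2 together made up 11.8%, 13.3% and 14.2% of counts on 10% fat and 8.26%, 8.19% and 3.92% on 44% fat (13.1% ± 1.25 and 6.79% ± 2.48, SD, n = 3 each). The 30 acinar genes made up 5.35%, 4.98% and 6.53% on 10% fat and 9.81%, 15.3% and 20.1% on 44% fat. The 21 macrophage genes made up 0.0132%, 0.0237% and 0.0375% on 10% fat and 0.0799%, 0.0793% and 0.132% on 44% fat. In none of these shares did the diets overlap, and replicate 3 on 44% fat lay at the far end of each. The exact two-sided permutation test gave p = 0.1 for each, which is the smallest that 3 against 3 libraries allow. With acinar transcripts left out of the total, insulin was 12.4%, 14% and 15.2% on 10% fat and 9.16%, 9.66% and 4.91% on 44% fat. In bulk RNA, fewer cells of a type and less RNA per cell cannot be told apart.

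**Figure D1:**
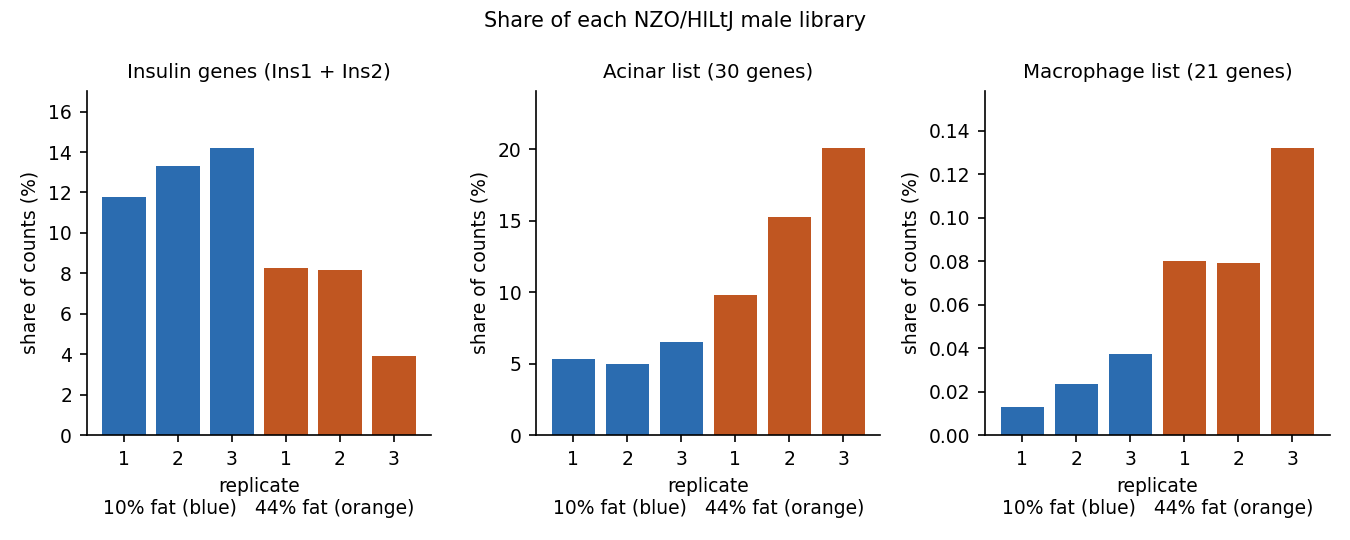
Share of all counts (percent, vertical axes from 0) taken by insulin transcripts, 30 acinar genes and 21 macrophage genes in each NZO/HlLtJ male library, with 1 bar per library, blue for 10% fat and orange for 44% fat. Insulin lies between 11.8% and 14.2% on 10% fat and between 3.92% and 8.26% on 44% fat, and the acinar and macrophage shares are higher in all 3 libraries on 44% fat.

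Genes changed in both directions across the transcriptome. Of 20306 genes tested, 6518 (32.1%) passed an adjusted p under 0.05 in edgeR's quasi-likelihood test with Benjamini-Hochberg adjustment, the test behind every adjusted p below. Of these, 3451 (17.0%) were higher on 44% fat and 3067 (15.1%) lower. The balance depended on the scaling and the fit, with 2343 higher and 965 lower after scaling by library totals, 2065 and 653 in a fit of the compared groups alone and 4003 and 2237 in limma. A change of at least 2-fold was seen in 2265 of the genes that rose and 453 of those that fell, and the median over all tested genes was a log2 difference of -0.027. The CPM values of the diets did not overlap in 7411 genes (36.5%), and 5436 of the 6518 genes (83.4%) were among them. Without replicate 3 on 44% fat, 3243 of 20642 genes passed (15.7%), with 1852 higher (8.97%) and 1391 lower (6.74%). Of the 6518 genes, 3201 (49.1%) passed in the same direction without it.

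The libraries of a diet differed in how far they moved. Among the 3451 genes that rose, replicate 3 on 44% fat was the library farthest from the 10% group in 3053 (88.5%), and replicate 3 on 10% fat was the one closest to the 44% group in 2518 (73.0%). Among the 3067 genes that fell, the corresponding numbers were 2439 (79.5%) and 2161 (70.5%). The sample codes fall into series that begin with 76, 80 and 89. Both diets hold 1 library of series 76 (replicate 1 of each), the other two 10% libraries are of series 89 and the other two 44% libraries of series 80, so outside that pair the series and the diet cannot be told apart. In the series 76 pair alone, 6392 of the 6518 genes (98.1%) differed in the same direction. This pair is among the 6 libraries that made the calls, and in the 5436 genes without overlap its direction was fixed by that, so the count describes the pair and is no separate test. The labels do not say that the libraries come from separate mice, and p-values measure the spread between libraries.

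Genes of many functions were among those that changed most. The 12 steepest falls that held without replicate 3, had no overlap and averaged at least 1 CPM ran from Cyp4f39, a cytochrome P450, at a log2 difference of -3.90 (SE 0.58, adjusted p = 1.28e-05) to Gipr, the receptor for the incretin GIP, at -2.02. Rasd1, a small G protein induced by glucocorticoids, was 79.6, 112 and 79.1 CPM on 10% fat and 19.7, 7.03 and 8.73 CPM on 44% fat (log2 difference -2.93, SE 0.52, adjusted p = 8.48e-05). Gad1, which makes the transmitter GABA, was 32.8, 18 and 13.2 CPM against 4.94, 6.66 and 3.66 CPM (-2.07, SE 0.33, adjusted p = 2.4e-05). St8sia1, a sialyltransferase of gangliosides, was 22.4, 15.8 and 7.07 CPM against 2.41, 3.39 and 2.97 CPM (-2.37, SE 0.28, adjusted p = 6.13e-07). All 3 genes were lower in each library on 44% fat than in any on 10% fat, which the rule required of them. The remaining falls were T2, Otoa, Kcnf1, Kcnj12 (-2.34, and -1.43 without replicate 1 on 10% fat), Srl, Mreg and the antisense transcript Slc6a19os, whose reads cannot be told from its partner's without strand.

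The 12 steepest rises were led by Pga5, a pepsinogen, at 0.0655, 0.0883 and 0.0632 CPM on 10% fat and 7.29, 0.714 and 20.9 CPM on 44% fat (log2 difference 7.02, SE 0.75, adjusted p = 2.44e-09). Most of the others are genes known from B lymphocytes, among them Cr2, Ighd, Pou2af1, Fcrl1, Fcmr, Blk, Cd79a, Btla and Siglecg, with log2 differences from 3.66 to 6.14. Ighd did not pass without replicate 1 or 2 on 10% fat (adjusted p = 0.0683 and 0.053). Il9r, the receptor for interleukin 9, was 0.109, 0.155 and 0.202 CPM against 0.987, 3.97 and 5.23 CPM (4.44, SE 0.74, adjusted p = 1.72e-05). These genes stood below 1 CPM in each library on 10% fat. They met the rule's mean of at least 1 CPM only through the libraries on 44% fat, so part of this contrast was fixed by the rule. For Il9r the level on 44% fat was lowest in replicate 1 and higher in replicates 2 and 3.

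**Figure D2:**
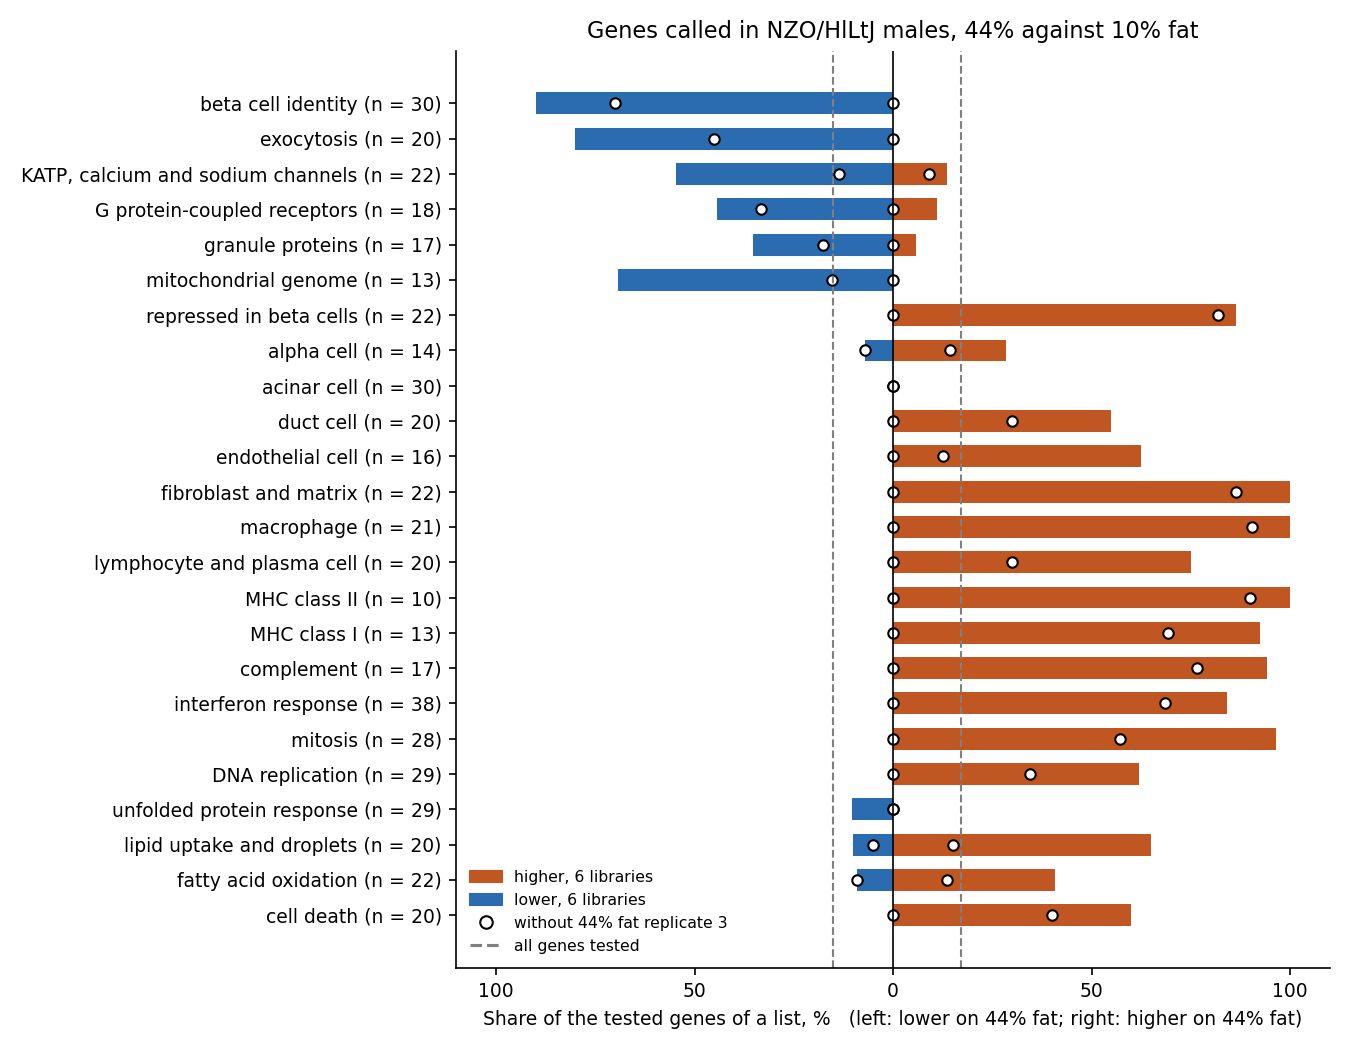
Share of the tested genes of each of 24 gene lists (percent, horizontal axis) that were lower on 44% fat (left, blue) or higher (right, orange) in NZO/HlLtJ males. Open circles give the same shares without replicate 3 on 44% fat. Dashed lines give the shares over all genes with all 6 libraries, 15.1% lower and 17.0% higher. For the open circles the shares over all genes were 6.74% lower and 8.97% higher, and are not drawn. Beta cell identity genes lie at the far left, with 27 of 30 lower, and macrophage, fibroblast and MHC class II genes at the far right, with every tested member higher.

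Genes that define the mature beta cell fell. Of 30 beta cell identity genes tested, 27 fell and none rose, and 24 had no overlap between the diets, against 15.1% of all genes that fell and 36.5% without overlap. Their median log2 difference was -1.02, beside -0.027 over all genes. For each list count of these males below that names no other fit, the shares over all genes were 17.0% higher, 15.1% lower and 36.5% without overlap. Without replicate 3 on 44% fat the shares over all genes were 8.97% higher and 6.74% lower. With libraries scaled by their totals, 2343 of 20306 genes rose and 965 fell. In a fit of the 6 libraries alone, 2065 of 17790 genes rose and 653 fell. Other fits have shares of their own. The 3 identity genes that did not pass were Iapp, Hnf4a and Glis3. With replicate 3 on 44% fat left out, 21 of the 30 fell and the median was -0.82.

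The transcription factors of this list fell by differing amounts. Nkx6-1, which keeps beta cells distinct from other endocrine cells (GRCm38 chromosome 5, 101658139 to 101664996), was 347, 314 and 199 CPM on 10% fat and 135, 128 and 58.4 CPM on 44% fat. The highest library on 44% fat lay below the lowest on 10% fat, and the log2 difference was -1.42 (SE 0.23, adjusted p = 2.96e-05; -1.12 and adjusted p = 0.00125 without replicate 3). Pax6, an activator of islet hormone genes, was 166, 136 and 116 CPM against 82.5, 73.6 and 49.2 CPM (-1.02, SE 0.14, adjusted p = 2.32e-06). Neurod1, an activator of the insulin genes, was 149, 127 and 116 CPM against 82.1, 67.4 and 41.4 CPM (-1.03, SE 0.17, adjusted p = 2.2e-05). Neither gene overlapped between the diets, and both passed without replicate 3, with adjusted p = 0.000143 and 0.00111. Pdx1, the factor needed for pancreas formation and insulin transcription, was 163, 202 and 180 CPM against 116, 110 and 48.1 CPM (-0.99, SE 0.24, adjusted p = 0.00185), and passed without replicate 3 at 0.0409. Mafa, the factor of glucose-responsive insulin transcription, was 91.9, 133 and 56.6 CPM against 65.5, 39 and 19.3 CPM (-1.19, SE 0.35, adjusted p = 0.00928). Its diets overlapped, and it did not pass without replicate 3 on 44% fat (adjusted p = 0.109) or without replicate 2 on 10% fat (0.102). Insm1 and Isl1, 2 further factors of endocrine cells, fell by 1.18 and 0.89 on the log2 scale, Foxa2 by 0.69 and Nkx2-2 by 0.67; of these 4, Nkx2-2 did not pass without replicate 3 (adjusted p = 0.0656).

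Several genes of the beta cell surface and granule had larger log2 differences than the factors named above. Ucn3, the peptide urocortin 3 that marks mature beta cells in the mouse (chromosome 13, 3940688 to 3945349), was 284, 304 and 160 CPM on 10% fat and 85.3, 78.4 and 26.9 CPM on 44% fat. All libraries on 44% fat lay below all on 10% fat, and the log2 difference was -1.97 (SE 0.26, adjusted p = 2.52e-06). Slc2a2, the glucose transporter (chromosome 3, 28697903 to 28731359), was 581, 522 and 268 CPM against 139, 195 and 98.1 CPM (-1.66, SE 0.26, adjusted p = 1.9e-05). Slc30a8, which carries zinc into insulin granules (chromosome 15, 52295553 to 52335798), was 519, 497 and 265 CPM against 167, 181 and 99 CPM (-1.52, SE 0.19, adjusted p = 1.13e-06). In both, replicate 3 was the lowest library of its diet, on 10% fat as well as on 44% fat, and the diets still did not overlap. Trpm5, a cation channel that opens with calcium, was 60.5, 51.7 and 27.4 CPM against 13.3, 16.6 and 7.67 CPM (-1.90, SE 0.25, adjusted p = 2.03e-06). Prlr, the prolactin receptor, was 678, 584 and 509 CPM against 252, 246 and 120 CPM (-1.52, SE 0.27, adjusted p = 6.28e-05). Each of these 5 genes passed without replicate 3, with log2 differences of -1.61 for Ucn3, -1.45 for Slc2a2, -1.30 for Slc30a8, -1.64 for Trpm5 and -1.25 for Prlr.

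The acinar share was higher in each library on 44% fat, and a term for the acinar score in the model left the count of beta cell identity genes that fell at 27. The count was 24 when libraries were scaled by their totals and 17 when the 6 libraries were fitted alone. Over all genes, 965 of 20306 and 653 of 17790 fell in these fits. The macrophage share was also higher in each library on 44% fat, and its part in the result was not tested.

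**Figure D3:**
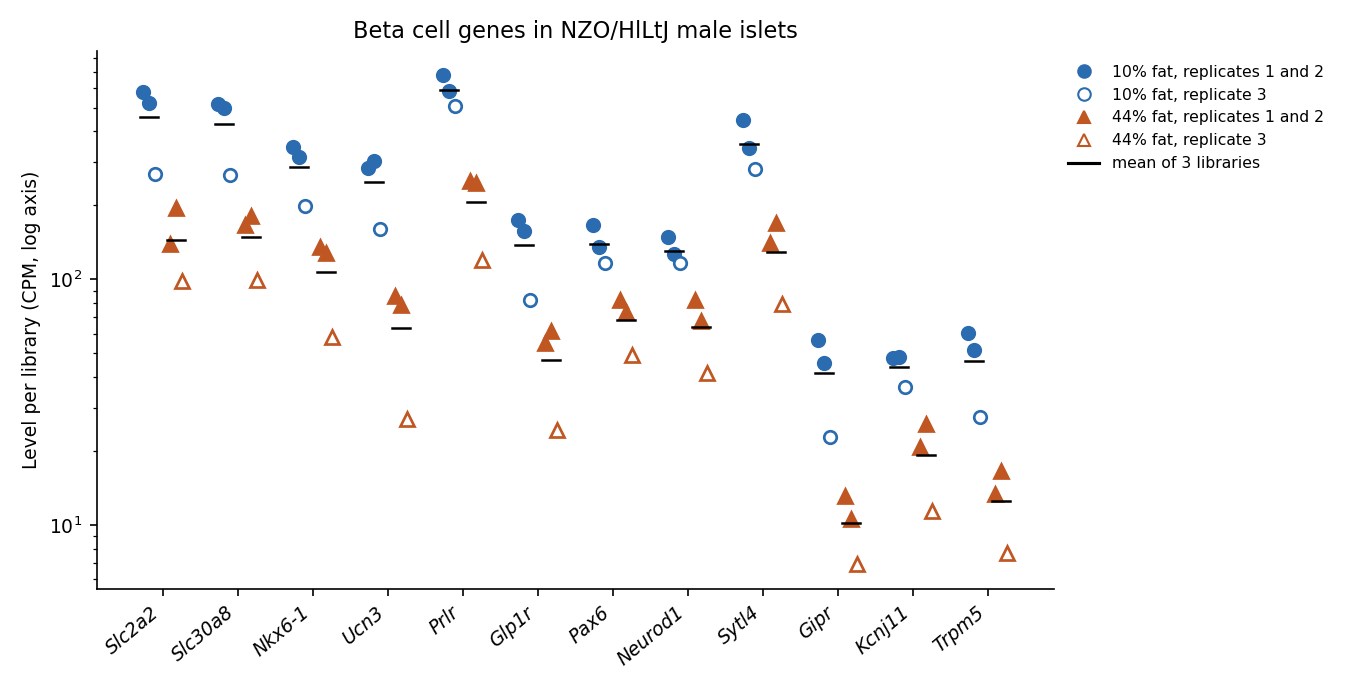
Level (CPM, log axis) of 12 beta cell genes in each NZO/HlLtJ male library, blue circles for 10% fat and orange triangles for 44% fat, with replicate 3 of each diet drawn open and a black line at the mean of 3 libraries. In each of the 12 genes the 3 libraries on 44% fat lie below those on 10% fat, and the open symbol on 44% fat is the lowest of all.

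Both insulin genes fell. Ins1 (chromosome 19, 52264323 to 52265456) was 42291, 51558 and 58204 CPM on 10% fat and 29307, 33349 and 13463 CPM on 44% fat. Ins2 was 74212, 80162 and 95698 CPM against 51855, 58267 and 28604 CPM. Neither overlapped between the diets, and replicate 3 on 44% fat was the lowest library for both. The log2 difference of Ins1 was -1.0 (SE 0.22, adjusted p = 0.000855), and that of Ins2 -0.85 (SE 0.22, adjusted p = 0.00258). Without replicate 3 they were -0.69 (adjusted p = 0.022) and -0.60 (adjusted p = 0.0532), so Ins2 no longer passed. Iapp, the amylin hormone stored with insulin, was 18164, 20875 and 29833 CPM against 20657, 19375 and 12169 CPM and overlapped (-0.40, SE 0.20, adjusted p = 0.118). G6pc2, a phosphatase that opposes glucokinase, fell by 1.10 on the log2 scale (adjusted p = 0.00122).

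Of 17 genes of the secretory granule, 6 fell, beside 15.1% of all genes, and 1 rose, with a median log2 difference of -0.41. With libraries scaled by their totals 2 fell, and none did in a fit of the 6 libraries alone. Chga, chromogranin A, was 14166, 12580 and 12383 CPM on 10% fat and 8299, 8208 and 4434 CPM on 44% fat (-0.90, SE 0.20, adjusted p = 0.000738). Pcsk1, a protease that cuts proinsulin, was 576, 520 and 685 CPM against 396, 376 and 228 CPM (-0.83, SE 0.20, adjusted p = 0.0013). The diets did not overlap in either. Chgb, chromogranin B, was 2231, 2722 and 6847 CPM against 5780, 4822 and 3595 CPM and did not pass (0.27, SE 0.28, adjusted p = 0.498). Without replicate 3 on 10% fat it passed as higher (0.93, adjusted p = 0.00507). Its 10% libraries spanned the 44% libraries, with replicate 3 the highest of the 6. The other genes that fell were Pcsk2, Scg3, Pcsk1n and Vamp2, of which the first 3 did not pass without replicate 3 of either diet. The 1 that rose was Cpd, a carboxypeptidase, at 0.35 (adjusted p = 0.0277), and it passed in 2 of the 6 fits that leave out 1 library. Without replicate 3 on 44% fat, 3 of the 17 fell and none rose.

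Receptors that raise or lower insulin release fell in part. Of 18 G protein coupled receptors, 8 fell and 2 rose, beside 15.1% and 17.0% of all genes, with a median of -0.42. Gipr, the GIP receptor (chromosome 7, 19156061 to 19166127), was 56.7, 45.4 and 22.7 CPM on 10% fat and 13.1, 10.6 and 6.92 CPM on 44% fat (-2.02, SE 0.24, adjusted p = 6.13e-07). Glp1r, the receptor for the incretin GLP-1 (chromosome 17, 30901867 to 30936510), was 175, 158 and 82 CPM against 54.9, 61.5 and 24.3 CPM (-1.56, SE 0.25, adjusted p = 2.16e-05). Both incretin receptors were lower in every library on 44% fat than in any on 10% fat, and without replicate 3 the differences were -1.81 and -1.25, with adjusted p = 4.03e-05 and 0.000833. Ffar1, a receptor for long-chain fatty acids, was 211, 208 and 189 CPM against 139, 134 and 52.5 CPM (-0.90, SE 0.23, adjusted p = 0.00284), and missed the threshold without replicate 3 (0.0561). Adra2a, through which adrenaline restrains insulin release, was 161, 146 and 187 CPM against 100, 110 and 58.9 CPM (-0.87, SE 0.21, adjusted p = 0.00148). Vipr1, a receptor for the neuropeptide VIP, was 82.6, 63.9 and 54.1 CPM against 37.1, 40.1 and 41.7 CPM (-0.75, SE 0.15, adjusted p = 0.000176). Both genes separated the diets without overlap. Chrm3, Sstr3 and the orphan receptor Gpr158 also fell. The genes that rose were Npy1r and Avpr1b, and Avpr1b overlapped, at 9.93, 7.33 and 9.84 CPM against 28.5, 7.98 and 24.4 CPM. Neither passed without replicate 3 on 44% fat (adjusted p = 0.283 and 0.0651), nor did Sstr3 (0.111); in that fit 6 of the 18 receptors fell and none rose.

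Of 22 channels and calcium handling genes, 12 fell and 3 rose, with a median of -0.46. Kcnj11, the pore of the potassium channel that ATP closes, was 47.9, 48.1 and 36.3 CPM on 10% fat and 20.8, 25.7 and 11.4 CPM on 44% fat (-1.19, SE 0.16, adjusted p = 2.93e-06). Its partner Abcc8, the sulfonylurea receptor, was 841, 743 and 754 CPM against 632, 677 and 409 CPM, and fell less (-0.44, SE 0.13, adjusted p = 0.00821; 0.168 without replicate 3). Cacnb2, a subunit of calcium channels, was 29.5, 32.9 and 28.1 CPM against 19, 19.4 and 16.2 CPM (-0.73, SE 0.11, adjusted p = 7.39e-06). The channel pores Cacna1c, Cacna1d and Cacna1a also fell, with overlap between the diets in each, and none of these 3 passed without replicate 1 on 10% fat (adjusted p = 0.281, 0.3 and 0.268). Itpr1, which releases calcium from the endoplasmic reticulum, rose from 66.8, 61.1 and 51.6 CPM to 86.5, 80.1 and 131 CPM (0.73, SE 0.16, adjusted p = 0.000761), with a difference of 0.48 without replicate 3 on 44% fat. Without replicate 3 on 44% fat, 3 of the 22 fell and 2 rose, and the counts were 3 and 0 with libraries scaled by their totals.

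Of 20 genes of granule docking and fusion, 16 fell, beside 15.1% of all genes, and none rose, with a median of -0.57. The number that fell was 7 with libraries scaled by their totals and 5 in a fit of the 6 libraries alone. Sytl4, granuphilin, which docks insulin granules, was 444, 344 and 281 CPM on 10% fat and 140, 169 and 79.2 CPM on 44% fat (-1.46, SE 0.20, adjusted p = 2.96e-06). Rph3al, a Rab effector, was 88.7, 80.4 and 74.8 CPM against 49.5, 50.5 and 35.3 CPM (-0.85, SE 0.11, adjusted p = 2.32e-06). Rims2, a scaffold of the release site, was 36.1, 31.5 and 25.2 CPM against 20.4, 20.2 and 16 CPM (-0.71, SE 0.11, adjusted p = 1.6e-05). In these 3 genes the diets did not overlap. The SNARE genes Snap25 and Vamp2 fell by 0.51 and 0.50 on the log2 scale, Snap25 with adjusted p = 0.163 without replicate 3. Stx1a, the syntaxin of this fusion complex, was 6.49, 6.03 and 5.7 CPM against 6.76, 5.45 and 6.57 CPM and did not pass (0.04, SE 0.15, adjusted p = 0.862). Without replicate 3 on 44% fat, 9 of the 20 fell.

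Genes that are normally kept silent in beta cells rose. Of 22 such genes, 19 rose and none fell, 21 had no overlap between the diets, and the median was 1.53, beside 17.0% of all genes that rose. Ldha, lactate dehydrogenase A (chromosome 7, 46841475 to 46855627), was 16, 18.7 and 23.9 CPM on 10% fat and 38.4, 41.7 and 89.7 CPM on 44% fat (1.53, SE 0.32, adjusted p = 0.000449). Slc16a1, a lactate and pyruvate carrier, was 0.961, 1.38 and 1.8 CPM against 3.17, 3.12 and 6.62 CPM (1.64, SE 0.37, adjusted p = 0.000774). Hk1, a hexokinase of high glucose affinity, was 11.4, 14.8 and 20.5 CPM against 27.5, 25.2 and 41.4 CPM (1.01, SE 0.20, adjusted p = 0.000244). All 3 metabolic genes were higher in every library on 44% fat, with replicate 3 the highest. Rest, a repressor of neuronal genes that beta cells lack, was 3.61, 3.85 and 5.16 CPM against 9.92, 10.4 and 19 CPM (1.64, SE 0.27, adjusted p = 2.78e-05). Parp3, a polymerase of ADP-ribose, was 3.39, 3 and 5.58 CPM against 12.7, 10.8 and 14 CPM (1.65, SE 0.22, adjusted p = 2.43e-06). Zyx, a protein of cell adhesions, was 9.63, 12.1 and 17.4 CPM against 26.9, 28.5 and 45.5 CPM (1.37, SE 0.21, adjusted p = 1.08e-05). The 3 members that did not pass were Hk2, Acot7 and Fgf1, of which Acot7 passed without replicate 3 on 10% fat (adjusted p = 0.0443). The fit without replicate 3 on 44% fat had 18 of the 22 rise with a median of 1.23.

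Several of these genes are also expressed by fibroblasts, macrophages and acinar or duct cells, whose markers moved in the same direction. The summed level of the 22 genes was 193, 293 and 420 CPM on 10% fat and 682, 741 and 1230 CPM on 44% fat, and that of 22 fibroblast genes 713, 1152 and 2330 CPM and 3411, 3004 and 5959 CPM. With a term for the acinar score, 19 rose, in a fit that cannot part the acinar share from the diet. The part of fibroblasts and macrophages was not tested.

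Markers of beta cell dedifferentiation and of progenitors changed in part. Of 12 tested, 4 rose and 1 fell, beside 17.0% and 15.1% of all genes, with a median of 0.39. Leaving out replicate 3 on 44% fat, 2 rose and none fell, and 2 also rose without replicate 1 on 10% fat. Aldh1a3, an enzyme of retinoic acid synthesis that marks failing beta cells, was 122, 181 and 152 CPM on 10% fat and 157, 144 and 76.6 CPM on 44% fat, with overlap (-0.27, SE 0.35, adjusted p = 0.603). Neurog3, the factor of endocrine progenitors, was 0.939, 0.795 and 0.797 CPM against 1.1, 0.728 and 0.853 CPM (0.08, SE 0.36, adjusted p = 0.891). The gut hormone genes Cck and Gast rose. Cck, cholecystokinin (chromosome 9, 121489825 to 121495689), was 0.459, 2.27 and 21.5 CPM against 94.7, 78.7 and 94.1 CPM (3.47, SE 0.68, adjusted p = 0.000163). Gast, gastrin, was 0.568, 0.552 and 2.4 CPM against 8.84, 4.96 and 3.65 CPM (2.32, SE 0.47, adjusted p = 0.000201). In both, replicate 3 on 10% fat was the highest of its diet and lay nearest to 44% fat, and without it the difference of Cck was 6.03. Slc5a10, a sugar transporter, was 0.371, 1.08 and 81.2 CPM on 10% fat and 108, 79.6 and 103 CPM on 44% fat. For this gene replicate 3 on 10% fat lay within the range of 44% fat, and the difference did not pass (1.82, SE 0.90, adjusted p = 0.122). Without that 10% library it was 7.06 and passed (adjusted p = 1.95e-07), and without replicate 1 on 10% fat it was 1.21. Sox9, a factor of duct and progenitor cells, and Mycl rose but did not pass without replicate 3 on 44% fat (adjusted p = 0.115 and 0.149) or replicate 1 on 10% fat (0.144 and 0.106).

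Genes known to respond to glucose through the factor ChREBP were examined next. Txnip, which binds thioredoxin (chromosome 3, 96557957 to 96561883), was 466, 428 and 872 CPM on 10% fat and 1192, 1463 and 1198 CPM on 44% fat (1.13, SE 0.30, adjusted p = 0.00354). Arrdc4, its close relative, was 19.1, 24.9 and 53.1 CPM against 94.7, 99.8 and 71 CPM (1.45, SE 0.28, adjusted p = 0.000213). Replicate 3 on 10% fat was the highest of its diet in both genes and no library overlapped. Mlxipl, which encodes ChREBP, fell, at 204, 186 and 76.4 CPM against 83.5, 67.1 and 47.8 CPM (-1.23, SE 0.28, adjusted p = 0.000822), with overlap through replicate 3 on 10% fat. Of 11 genes of this list, 5 rose and 1 fell, with and without replicate 3 on 44% fat. The number that rose was 2 without replicate 1 on 10% fat, and 3 without replicate 2 on 10% fat or replicate 2 on 44% fat. In the summed level of the list, 2581, 2669 and 2237 CPM on 10% fat and 2918, 3394 and 2438 CPM on 44% fat, the diets overlapped and replicate 3 was the lowest of each diet.

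Metabolic genes changed in both directions. Pcx, pyruvate carboxylase, which refills the citric acid cycle in beta cells (chromosome 19, 4510472 to 4621752), was 127, 98.1 and 39.4 CPM on 10% fat and 21.9, 29.7 and 22.7 CPM on 44% fat (-1.83, SE 0.25, adjusted p = 2.52e-06). Hadh, an enzyme of fatty acid oxidation whose loss in humans causes excess insulin release, was 523, 491 and 406 CPM against 241, 274 and 166 CPM (-1.06, SE 0.17, adjusted p = 1.8e-05). Both were lower in every library on 44% fat. Other genes of fatty acid oxidation rose: Acadl was 18.8, 19.6 and 24.9 CPM against 30.2, 39.4 and 59.5 CPM (1.03, SE 0.16, adjusted p = 1.72e-05). Acot1, a thioesterase, was 0.502, 0.85 and 2.06 CPM against 4.39, 7.82 and 12.3 CPM (2.85, SE 0.52, adjusted p = 9.45e-05). Of 22 oxidation genes, 9 rose and 2 fell, with a median of 0.44; without replicate 3 on 44% fat, 3 rose and 2 fell.

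Of 20 genes of lipid uptake and lipid droplets, 13 rose and 2 fell, with a median of 0.86. Plin2, a coat protein of droplets, was 17.1, 14.5 and 24.8 CPM on 10% fat and 31.8, 37.6 and 43.1 CPM on 44% fat (0.99, SE 0.25, adjusted p = 0.00252). Cd36, a fatty acid transporter that macrophages and endothelium also carry, was 3.87, 7.01 and 10.2 CPM against 16.8, 27.4 and 51.4 CPM (2.18, SE 0.53, adjusted p = 0.00194). Neither overlapped between the diets. The counts were 3 and 1 when replicate 3 on 44% fat was left out. Of 13 genes of the mitochondrial genome, 9 fell and none rose, with a median of -0.55. Among them mt-Nd5, a subunit of respiratory complex I, was 2543, 1890 and 1461 CPM against 1399, 1221 and 1086 CPM (-0.67, SE 0.18, adjusted p = 0.00396; 0.0726 without replicate 1 on 10% fat). Of 32 nuclear genes of respiration, 4 fell and none rose, a share no higher than the 15.1% of all genes that fell. Of the 13 mitochondrial genes, 2 fell without replicate 3 on 44% fat, and 1 fell with libraries scaled by their totals. Of 22 glycolysis genes, 7 rose and 7 fell; Eno1 rose by 0.86 (adjusted p = 3.09e-05) and Eno2, the enolase of neurons and endocrine cells, fell by 0.80 (adjusted p = 1.97e-06).

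The genes of the other endocrine cells were mixed. Gcg, the glucagon gene of alpha cells, was 6237, 7014 and 11091 CPM on 10% fat and 14884, 9542 and 16456 CPM on 44% fat. Replicate 2 on 44% fat lay below replicate 3 on 10% fat, so the diets overlapped, and the log2 difference was 0.75 (SE 0.27, adjusted p = 0.0304). It passed neither without replicate 3 on 44% fat (0.174) nor without replicate 1 or 2 on 10% fat (0.173 and 0.134) or replicate 1 on 44% fat (0.0797). Irx2, an alpha cell factor, was 5.86, 5.74 and 8.26 CPM against 12.3, 9.7 and 12.6 CPM (0.80, SE 0.23, adjusted p = 0.00806; 0.0544 and 0.0542 without replicate 1 or 2 on 10% fat). Of 14 alpha cell genes, 4 rose, beside 17.0% of all genes, and 1 fell, the latter being Slc7a2, a carrier of basic amino acids (-0.96, adjusted p = 3.47e-05). The number that rose was 2 without replicate 3 or replicate 1 on 44% fat, and 1 without replicate 1 or 2 on 10% fat or with libraries scaled by their totals. Sst, somatostatin of delta cells, was 1451, 1033 and 1358 CPM against 1337, 1111 and 1418 CPM (0.01, SE 0.18, adjusted p = 0.98). Hhex, a delta cell factor that duct cells also express, was 6.68, 9.47 and 9.67 CPM against 17.3, 16 and 26.3 CPM (1.21, SE 0.25, adjusted p = 0.000442). Ppy, pancreatic polypeptide, did not pass (0.31, SE 0.62, adjusted p = 0.75).

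The exocrine genes were higher on 44% fat in level, but none passed the test over all 45 libraries. Of 30 acinar genes, none rose or fell by edgeR, 1 had an unadjusted p under 0.05, DESeq2 called 2 and limma 1. In 29 of them the diets did not overlap, beside 36.5% of all genes, and the median was 1.41. Cpa1, a carboxypeptidase, was 3681, 3358 and 4660 CPM on 10% fat and 6154, 10654 and 12719 CPM on 44% fat (1.34, SE 1.38, adjusted p = 0.497). Cela3b, an elastase, was 1319, 1331 and 2152 CPM against 3010, 5770 and 8517 CPM (1.85, SE 1.42, adjusted p = 0.344). The diets did not overlap in either. The standard errors, which rest on a spread estimated over all 12 groups, exceeded 1 on the log2 scale. In a fit of the 6 libraries alone, 21 of the 30 rose, beside 2065 of all 17790 genes. With the acinar score, which is built from these genes, as a term in the model, 2 rose and 9 fell, the median was -0.25 and the difference of Cpa1 turned to -0.37. Prss1 and its trypsinogen relatives are near copies whose reads may be split between them.

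Of 20 duct genes, 11 rose and none fell, with a median of 0.80. Car2, a carbonic anhydrase, was 1.94, 3.71 and 3.76 CPM on 10% fat and 11.9, 8.56 and 32.6 CPM on 44% fat (2.50, SE 0.45, adjusted p = 7.66e-05). Krt19, a keratin of duct cells, was 3.84, 7.86 and 14 CPM against 20.2, 19.8 and 61.6 CPM (1.99, SE 0.74, adjusted p = 0.0365). Spp1, osteopontin, which macrophages also express, was 130, 222 and 292 CPM against 742, 606 and 1219 CPM (1.99, SE 0.46, adjusted p = 0.00111). All 3 were higher in each library on 44% fat, and replicate 3 was the highest. Without it, Krt19 did not pass (adjusted p = 0.299), nor without replicate 1 or 2 on 10% fat (0.165 and 0.114), and 6 of the 20 duct genes rose.

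Macrophage genes rose in full. All 21 tested rose, none overlapped between the diets, and the median was 2.16. Adgre1, which encodes F4/80 (chromosome 17, 57358686 to 57483529), was 3.29, 7.33 and 10.1 CPM on 10% fat and 24.4, 28 and 51 CPM on 44% fat (2.32, SE 0.30, adjusted p = 1.95e-06). C1qc, a chain of complement C1q made by tissue macrophages (chromosome 4, 136889804 to 136893065), was 6.96, 11.8 and 21.9 CPM against 52.3, 53.7 and 95.6 CPM (2.31, SE 0.29, adjusted p = 1.06e-06). Csf1r, the receptor for macrophage growth factors, was 10.1, 18.1 and 24.5 CPM against 54, 66.7 and 108 CPM (2.12, SE 0.31, adjusted p = 8.23e-06). In these 3 genes the lowest library on 44% fat exceeded the highest on 10% fat, which was replicate 3. Trem2, a receptor of macrophages that take up lipid, was 0.611, 0.883 and 2.18 CPM against 4.1, 3.8 and 4.58 CPM (1.77, SE 0.41, adjusted p = 0.000999). When replicate 3 on 44% fat was left out, 19 of the 21 rose with a median of 1.83, and with the acinar score as a term all 21 rose with a median of 2.13.

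Genes of antigen presentation and complement rose with them. All 10 MHC class II genes rose, with no overlap and a median of 2.23. Cd74, the invariant chain, was 101, 194 and 265 CPM on 10% fat and 693, 589 and 1241 CPM on 44% fat (2.17, SE 0.34, adjusted p = 1.8e-05). H2-Aa, a class II chain, was 35.8, 73.2 and 94.7 CPM against 243, 240 and 460 CPM (2.21, SE 0.34, adjusted p = 1.87e-05). Ciita, the master activator of class II genes, was 3.09, 4.37 and 5.58 CPM against 16.3, 20.1 and 28.2 CPM (2.31, SE 0.50, adjusted p = 0.000661). The separation of the diets was complete in each. Of 13 genes of MHC class I presentation, 12 rose with a median of 1.31; H2-K1 was 92.1, 105 and 123 CPM against 252, 202 and 442 CPM (1.49, SE 0.29, adjusted p = 0.000188). MHC genes differ between strains and resemble each other, so reads may be split among them. Of 17 complement genes, 16 rose with a median of 1.95. C3, the central component, was 50.7, 156 and 256 CPM against 483, 570 and 1220 CPM (2.30, SE 0.68, adjusted p = 0.00952), and did not pass without replicate 3 (0.087) or without replicate 1 on 10% fat (0.0736). In the fit without replicate 3 on 44% fat, 9 of 10 class II, 9 of 13 class I and 13 of 17 complement genes rose.

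Of 25 chemokine and cytokine genes, 13 rose and none fell, with a median of 1.42. Cxcl16, a chemokine of macrophages, was 6.98, 9.15 and 13 CPM on 10% fat and 27.5, 24.1 and 46.7 CPM on 44% fat (1.75, SE 0.22, adjusted p = 1.2e-06). Ccl6, another, was 0.743, 0.828 and 1.42 CPM against 3.41, 7.11 and 7.71 CPM (2.61, SE 0.43, adjusted p = 2.54e-05). Both were higher in every library on 44% fat. The inflammatory cytokines Tnf, Il1b and Il6 did not pass, with log2 differences of 0.16, 0.44 and -0.05. Without replicate 3, 8 of the 25 rose.

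Lymphocyte genes rose from very low levels. Of 20 lymphocyte and plasma cell genes, 15 rose and none fell, 19 had no overlap and the median was 2.57. Cd79a, part of the B cell receptor (chromosome 7, 24897381 to 24902197), was 0.48, 0.585 and 0.645 CPM on 10% fat and 2.81, 11.2 and 14.1 CPM on 44% fat (4.03, SE 0.75, adjusted p = 0.000122). Ighm, the heavy chain of IgM, was 3.29, 7.12 and 9.36 CPM against 38, 97.9 and 144 CPM (3.83, SE 1.21, adjusted p = 0.0147; 0.0634 without replicate 3, and 0.0756 and 0.0556 without replicate 1 or 2 on 10% fat). In both B cell genes every library on 44% fat lay above all on 10% fat, and replicate 1 was the lowest on 44% fat. Cd3e, of the T cell receptor complex, was 0.0874, 0.397 and 0.468 CPM against 1.09, 2.12 and 3.5 CPM (2.82, SE 1.08, adjusted p = 0.042; 0.0549 to 0.173 without any 1 library other than replicate 1 on 44% fat), while Cd4 and Cd8a did not pass (adjusted p = 0.105 and 0.218). Ccl19, a chemokine of lymph node stroma, was 8.28, 11.6 and 19 CPM against 30.8, 40.1 and 47.5 CPM (1.61, SE 0.37, adjusted p = 0.00108). Lymph node pieces can be carried along with islets, and of 7 genes of lymph node stroma 4 rose, with Ccl21a at 0.0437, 4.66 and 1.95 CPM against 1.01, 2.33 and 7.68 CPM; their part in the lymphocyte result was not tested. Of the 20 lymphocyte genes, 6 rose without replicate 3 on 44% fat, with a median of 2.26.

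Fibroblast and matrix genes rose in full as well. All 22 tested rose, without overlap, with a median of 1.66, and 12 of the 22 rose in a fit of the 6 libraries alone. Col6a3, a chain of collagen VI (chromosome 1, 90765923 to 90843971), was 22.5, 26.2 and 50.6 CPM on 10% fat and 97.7, 69.5 and 148 CPM on 44% fat (1.66, SE 0.28, adjusted p = 4.14e-05). Dcn, the matrix proteoglycan decorin, was 23.2, 52.2 and 74.3 CPM against 132, 180 and 292 CPM (2.01, SE 0.46, adjusted p = 0.00106). Col1a1, a chain of collagen I, was 35.3, 93.9 and 268 CPM against 412, 293 and 770 CPM (1.89, SE 0.51, adjusted p = 0.00446). For Col1a1 replicate 3 on 10% fat lay just under the lowest library on 44% fat, and without replicate 3 on 44% fat the gene did not pass (adjusted p = 0.0654), whereas without replicate 3 on 10% fat the difference was 2.93. When replicate 3 on 44% fat was left out, 19 of the 22 rose, with a median of 1.33.

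Endothelial genes rose in part. Of 16 endothelial genes, 10 rose and none fell, with a median of 0.50. Pecam1, a surface marker of endothelium, was 96.8, 104 and 138 CPM on 10% fat and 153, 153 and 213 CPM on 44% fat (0.61, SE 0.15, adjusted p = 0.00246; 0.0616 without replicate 3). Kdr, the main receptor for VEGF-A, was 317, 301 and 234 CPM against 253, 210 and 209 CPM, with overlap; it did not pass, but did as lower without replicate 3 on 10% fat (-0.47, adjusted p = 0.0288). Vegfa, the growth factor by which beta cells sustain islet capillaries (chromosome 17, 46016993 to 46032377), fell from 346, 309 and 240 CPM to 168, 132 and 110 CPM (-1.13, SE 0.16, adjusted p = 4.72e-06). Its diets did not overlap and the fall held without replicate 3 (-0.99, adjusted p = 0.000361). Vegfb, a relative, also fell (-0.76, adjusted p = 0.000271) and Vegfc rose (1.18, adjusted p = 6.07e-05). Without replicate 3, 2 of the 16 endothelial genes rose. Of 12 pericyte and smooth muscle genes 6 rose, and of 10 Schwann cell genes 6 rose and 1 fell, beside 17.0% and 15.1% of all genes. Without replicate 3 on 44% fat, 2 of the pericyte genes and 1 of the Schwann cell genes rose, and the same counts were found without replicate 1 on 10% fat.

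**Figure D4:**
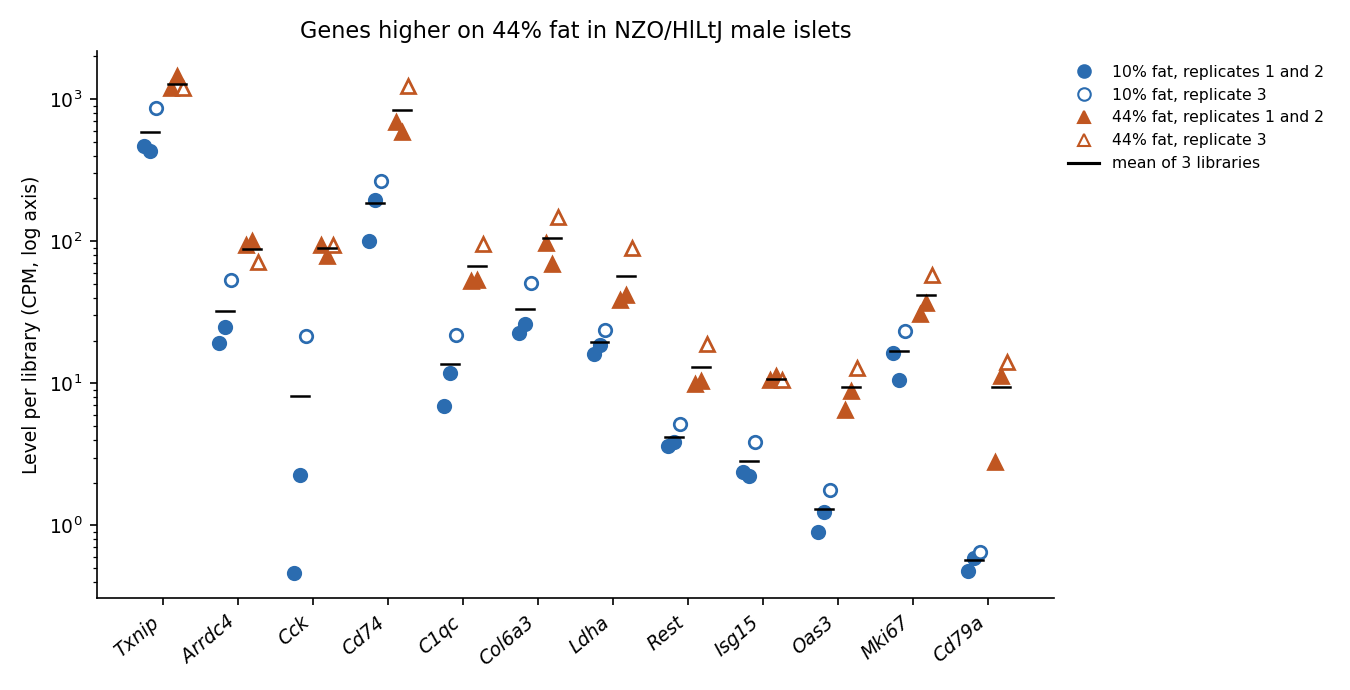
Level (CPM, log axis) of 12 genes that rose on 44% fat in each NZO/HlLtJ male library, blue circles for 10% fat and orange triangles for 44% fat, with replicate 3 of each diet drawn open and a black line at the mean of 3 libraries. The diets do not overlap in any of the 12 genes, and the open circle, replicate 3 on 10% fat, is the highest of its diet in each.

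Genes induced by interferon rose. Of 38 tested, 32 rose and none fell, 33 had no overlap between the diets, and the median was 1.25. Isg15, a ubiquitin-like modifier (chromosome 4, 156199424 to 156200818), was 2.37, 2.22 and 3.87 CPM on 10% fat and 10.5, 11.3 and 10.6 CPM on 44% fat (1.93, SE 0.33, adjusted p = 4.73e-05). Oas3, a sensor of double-stranded RNA (chromosome 5, 120753098 to 120777661), was 0.895, 1.25 and 1.77 CPM against 6.51, 8.8 and 12.8 CPM (2.85, SE 0.45, adjusted p = 1.74e-05). Oas1a, of the same family, was 4.91, 5.02 and 7.94 CPM against 18, 19.4 and 30.2 CPM (1.92, SE 0.28, adjusted p = 8.23e-06). For Isg15 the 3 libraries on 44% fat lay close together, and replicate 3 did not stand out. Ddx58, which encodes the RNA sensor RIG-I, was 25, 22.8 and 23.6 CPM against 41.8, 43.1 and 46.4 CPM (0.88, SE 0.13, adjusted p = 5.93e-06). Irf7, a factor of the interferon response, was 8.34, 15.9 and 18.4 CPM against 37.9, 50.8 and 73.7 CPM (1.93, SE 0.38, adjusted p = 0.000252). In all of these the diets did not overlap. The 6 that did not pass were Mx1, Mx2, Usp18, Iigp1, Cmpk2 and Trim25, of which Usp18 passed without replicate 3 on 10% fat (adjusted p = 0.00848). Leaving out replicate 3 on 44% fat, 26 of the 38 rose with a median of 1.17, and with the acinar score as a term 32 rose.

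The promoters of Oas3, Isg15 and Oas1a are shown because these genes rose together and the motif of 2 GAAA runs parted by 2 bases of any kind, the core of the element bound by interferon-activated factors, can be seen in them. The sequences are from RefSeq (GRCm38.p6), 5′ to 3′ on the strand of the gene, from 250 bases before to 50 after the start, with the motif in capitals where it occurs on either strand; at Isg15 the motifs number 3 and at Oas1a 2, and they overlap each other. The regions are chr5:120777610-120777909 (minus strand) for Oas3, chr4:156200769-156201068 (minus) for Isg15 and chr5:120907476-120907775 (minus) for Oas1a.
Oas3: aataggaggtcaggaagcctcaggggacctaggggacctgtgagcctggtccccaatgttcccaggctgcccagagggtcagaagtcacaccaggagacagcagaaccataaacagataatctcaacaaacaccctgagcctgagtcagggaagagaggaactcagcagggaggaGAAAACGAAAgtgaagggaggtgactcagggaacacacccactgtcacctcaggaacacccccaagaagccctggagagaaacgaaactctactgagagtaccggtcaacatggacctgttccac
Isg15: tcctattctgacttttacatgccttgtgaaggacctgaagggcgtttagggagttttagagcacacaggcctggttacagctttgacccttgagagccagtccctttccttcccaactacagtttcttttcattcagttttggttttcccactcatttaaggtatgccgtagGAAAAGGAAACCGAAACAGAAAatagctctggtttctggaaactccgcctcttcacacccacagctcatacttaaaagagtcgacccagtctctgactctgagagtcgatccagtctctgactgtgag
Oas1a: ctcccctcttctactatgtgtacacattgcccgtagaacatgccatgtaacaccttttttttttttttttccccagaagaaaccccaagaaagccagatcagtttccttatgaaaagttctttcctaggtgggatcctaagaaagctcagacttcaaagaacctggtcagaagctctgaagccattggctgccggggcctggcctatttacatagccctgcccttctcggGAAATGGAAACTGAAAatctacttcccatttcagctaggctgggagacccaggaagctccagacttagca
Of the 32 interferon genes that rose, 27 had a promoter in the table, and 17 of these (63.0%) held the motif on either strand. Of all 27025 genes with a promoter in the table, 1079 (3.99%) held it. Of the 30 tested interferon genes with a promoter, 17 (56.7%) held it. The list is made of genes known to be induced by interferon, so the share describes the list and not the diet. The match describes the letters in the window and is not a measured binding site.

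Genes of mitosis rose. Of 28 tested, 27 rose and none fell, 24 had no overlap and the median was 1.29. Kif11, a spindle motor (chromosome 19, 37376403 to 37421859), was 2.54, 2.04 and 3.2 CPM on 10% fat and 5.34, 6.51 and 8.84 CPM on 44% fat (1.41, SE 0.23, adjusted p = 2.08e-05). Bub1b, of the spindle checkpoint (chromosome 2, 118598211 to 118641591), was 1, 1.04 and 1.87 CPM against 2.76, 2.92 and 5.13 CPM (1.47, SE 0.28, adjusted p = 0.000146). Mki67, which encodes the proliferation marker Ki-67, was 16.4, 10.5 and 23.4 CPM against 30.8, 36.5 and 57.7 CPM (1.31, SE 0.33, adjusted p = 0.0027). None of the 3 overlapped between the diets. Aurka, a mitotic kinase, was the member that did not pass. Of 29 DNA replication genes, 18 rose and none fell, with a median of 0.48; Mcm6, of the replicative helicase, was 13.2, 12 and 16.3 CPM against 23.6, 24.8 and 34.5 CPM (1.00, SE 0.15, adjusted p = 1.33e-05). Ccnd2, the D cyclin of beta cells, fell from 1341, 1187 and 912 CPM to 659, 698 and 431 CPM (-0.94, SE 0.18, adjusted p = 0.000165), and Cdk6 rose by 1.69 (adjusted p = 4.64e-05). In the fit without replicate 3 on 44% fat, 16 of 28 mitosis and 10 of 29 replication genes rose. Macrophages and lymphocytes also divide, and their part in this result was not tested.

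The promoters of Kif11 and Bub1b are shown for CCAAT, the box bound by the factor NF-Y in promoters of cell cycle genes. They come from the same table, at chr19:37376132-37376431 (plus strand) and chr2:118597961-118598260 (plus), in the same orientation and span, with the box in capitals; where the capitals read ATTGG, the box lies on the other strand.
Kif11: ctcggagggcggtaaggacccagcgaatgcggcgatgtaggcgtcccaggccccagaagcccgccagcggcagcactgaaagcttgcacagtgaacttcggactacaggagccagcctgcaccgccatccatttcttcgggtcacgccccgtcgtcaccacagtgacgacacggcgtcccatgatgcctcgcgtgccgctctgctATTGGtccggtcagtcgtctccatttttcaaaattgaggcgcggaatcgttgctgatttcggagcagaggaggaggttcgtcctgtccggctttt
Bub1b: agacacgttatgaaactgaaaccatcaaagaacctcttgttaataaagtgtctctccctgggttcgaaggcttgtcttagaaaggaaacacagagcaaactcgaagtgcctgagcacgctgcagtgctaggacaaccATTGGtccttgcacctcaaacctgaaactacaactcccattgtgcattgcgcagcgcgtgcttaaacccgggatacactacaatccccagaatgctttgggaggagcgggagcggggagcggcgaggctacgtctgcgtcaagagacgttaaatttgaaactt
Of the 27 mitosis genes that rose, 22 had a promoter in the table and 17 (77.3%) held CCAAT on either strand. Of all 27025 genes with a promoter, 11096 (41.1%) held it. The motif TTTGAA, the core of the element named CHR, was also in 17 of the 22 (77.3%), against 5466 of those 27025 genes (20.2%). Each motif was in 18 of the 23 tested mitosis genes with a promoter (78.3%), so the shares describe the list and not the rise.

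Gene groups known from stressed cells were also examined. Of 29 genes of endoplasmic reticulum chaperones and the unfolded protein response, 3 fell and none rose, with a median of -0.31, and 9 fell with code series as a term. Hspa5, the chaperone BiP, was 2729, 3655 and 3926 CPM on 10% fat and 2999, 2465 and 2349 CPM on 44% fat, with overlap and no call. The 3 that fell were Wfs1 (-0.77, adjusted p = 0.00805), Canx (-0.51, adjusted p = 0.00555) and the sensor Atf6 (-0.47, adjusted p = 0.0452; 0.055 to 0.242 without any 1 library other than replicate 3 on 10% fat), and without replicate 3 none of the 29 passed edgeR's test (2 at an unadjusted p under 0.05). Of 22 genes of the ATF4 and CHOP branch, 4 fell and none rose, a share near the 15.1% of all genes that fell. Of 18 immediate early genes, none passed in edgeR, DESeq2 or limma, and 2 had an unadjusted p under 0.05 in edgeR. Of 20 genes of apoptosis and cell death, 12 rose and none fell, beside 17.0% of all genes that rose, with a median of 0.73, among them the inflammatory caspases Casp4 (1.95, adjusted p = 0.000223) and Casp1 (1.69, adjusted p = 0.00124), which macrophages also express. Of 21 antioxidant genes, 5 rose and 4 fell, beside 32.1% of all genes that passed in either direction. Nqo1, a quinone reductase, was 9.03, 7.54 and 3.63 CPM against 1.83, 2.71 and 2.3 CPM (-1.56, SE 0.28, adjusted p = 8.89e-05), whereas its regulator Nfe2l2 rose by 0.52 (adjusted p = 0.000402). Of 12 genes of the serotonin and prolactin axis, 4 fell, beside 15.1% of all genes, and 3 without replicate 3 on 44% fat. Maob, monoamine oxidase B, was 146, 143 and 95.8 CPM against 60, 56 and 30 CPM (-1.40, SE 0.21, adjusted p = 1.13e-05).

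NZO/HlLtJ females on the same diets were used to ask where the change in males differed. In females 3492 of 20306 genes passed (17.2%; 1902, or 9.37%, higher and 1590, or 7.83%, lower), of which 924 that rose and 191 that fell changed at least 2-fold. The difference of the diet effect, males minus females, was tested as an interaction in the same model, and 2030 genes passed (10.0%), 897 with a larger value in males (4.42%) and 1133 with a smaller one (5.58%). The difference uses the male libraries, so it is not independent of the results above. Outside series 76, the males are of series 89 on 10% fat and 80 on 44% fat, and the females of series 80 on 10% fat and 89 on 44% fat, so within this strain the part of the series in this difference cannot be told apart from it outside series 76. With code series as a term, 1238 genes had a larger and 1781 a smaller value in males. Without replicate 3 of the males on 44% fat, the counts were 159 and 172 of 20642 genes tested. These are the counts over all genes for each list count of this difference below that leaves out this library.

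The beta cell identity genes differed between the sexes. In females 5 of 30 fell and 3 rose (median -0.22), and in 20 of 30 the effect was lower in males. Without replicate 3 of the males on 44% fat it was lower in 5 of 30, beside 172 of all 20642 genes. Ins1 rose in females, from 33598 ± 5476 to 51177 ± 8211 CPM (SD, n = 4 each; log2 difference 0.61, adjusted p = 0.0261), and fell in males, from 50684 ± 7992 to 25373 ± 10510 CPM (n = 3 each), a difference of -1.61 (SE 0.30, adjusted p = 0.00116). The mean of the males on 10% fat was near that of the females on 44% fat. Ucn3 was 278 ± 36.2 and 213 ± 39.9 CPM in females and 250 ± 77.7 and 63.5 ± 31.9 CPM in males (difference -1.59, SE 0.34, adjusted p = 0.0036). Pcsk1 rose in females, from 469 ± 42.4 to 752 ± 171 CPM, and the difference was -1.51 (SE 0.26, adjusted p = 0.000522). Of 17 granule genes, 10 rose in females and 6 fell in males; the effect was lower in males in 12 and higher in 1, and lower in 3 and higher in none without replicate 3 of the males on 44% fat.

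The genes of the endoplasmic reticulum showed a like contrast. In females 17 of 29 rose (median 0.65), in males none rose, and 15 were lower in males in the test of the difference, or 4 without replicate 3 of the males on 44% fat. Hspa5 was 2269 ± 666 and 4096 ± 1468 CPM in females and 3437 ± 628 and 2604 ± 347 CPM in males (difference -1.25, SE 0.35, adjusted p = 0.0199). Derl3, which moves misfolded proteins out for degradation, was 13.6 ± 3.39 and 71.7 ± 23.4 CPM in females and 50.7 ± 18.6 and 47.9 ± 10.7 CPM in males (-2.48, SE 0.53, adjusted p = 0.00375). Aldh1a3 was 49.7 ± 17 and 164 ± 59.4 CPM in females and 152 ± 29.8 and 126 ± 43.3 CPM in males (-1.99, SE 0.47, adjusted p = 0.00749). Without replicate 3 of the males on 44% fat, Hspa5 and Aldh1a3 did not pass (0.0976 and 0.0597), and Hspa5 did not pass without replicate 2 of the females on 44% fat (0.0772). In Derl3 and Aldh1a3 the mean of the males on 10% fat lay above that of the females on 10% fat and within 1 SD of the females on 44% fat. Gcg fell in females, from 19268 ± 1840 to 12303 ± 1600 CPM, and the difference was 1.40 (SE 0.36, adjusted p = 0.0113; 0.0714 without replicate 3 of the males on 44% fat).

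Immune, matrix and mitosis genes rose in both sexes. In females 17 of 21 macrophage genes (median 1.58), 14 of 22 fibroblast genes (0.91), 7 of 10 MHC class II genes (1.58), 19 of 38 interferon genes (0.73) and 28 of 28 mitosis genes (1.81) rose. The test of the difference passed for none of the macrophage, fibroblast, MHC class II and mitosis genes and for 7 of 38 interferon genes, all 7 larger in males, or 1 of 38 without replicate 3 of the males on 44% fat. At an unadjusted p under 0.05 the difference was seen in 2 macrophage, 5 fibroblast, 0 MHC class II and 0 mitosis genes; DESeq2 called 0, 2, 0 and 0 of them and limma 5, 4, 1 and 0. A difference that did not pass does not show equal effects; for C1qc it was 0.67 with SE 0.36. Without replicate 3 of the males on 10% fat it passed as larger in males (adjusted p = 0.0238), and it was 0.33 without replicate 1 on 10% fat or replicate 3 on 44% fat. Gfod1, an oxidoreductase-like protein of chromosome 13 (43195519 to 43304172), was 2.52, 4.15 and 4.34 CPM in males on 10% fat and 13.2, 23.4 and 14.7 CPM on 44% fat (2.22, SE 0.21, adjusted p = 8.16e-09). In females it was 5.63 ± 1.25 and 5.99 ± 1.07 CPM, and the difference was 2.13 (SE 0.27, adjusted p = 1.81e-05).

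C57BL/6J males on the same diets changed in 9 genes, all higher, of 20306 (0.0443%); 854 genes had an unadjusted p under 0.05. The difference of the diet effect, NZO/HlLtJ minus C57BL/6J males, passed in 2250 genes (11.1%), 1155 larger in NZO/HlLtJ (5.69%) and 1095 smaller (5.39%). Without replicate 3 of the NZO/HlLtJ males on 44% fat these counts were 257 and 289 of 20642 genes tested. They are the counts over all genes for each list count of this difference below that leaves out that library. For beta cell identity genes the median in C57BL/6J males was -0.07, and 21 of 30 were lower in NZO/HlLtJ in the test of the difference, or 12 of 30 without that library. Slc2a2 was 833 ± 208 and 822 ± 113 CPM in C57BL/6J males (SD, n = 4 each), beside 457 ± 166 and 144 ± 48.6 CPM in NZO/HlLtJ males (difference -1.65, SE 0.34, adjusted p = 0.00239). Glp1r was 162 ± 23 and 159 ± 26.2 CPM beside 138 ± 49.7 and 46.9 ± 19.8 CPM (-1.53, SE 0.32, adjusted p = 0.00272). For Glp1r the strains stood near each other on 10% fat and apart on 44% fat.

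Among lists that rose, 15 of 21 macrophage genes, 13 of 22 fibroblast genes, 12 of 17 complement genes, 14 of 38 interferon genes and 11 of 22 genes normally silent in beta cells had a higher effect in NZO/HlLtJ than in C57BL/6J males. When replicate 3 of the NZO/HlLtJ males on 44% fat was left out, these counts were 8, 0, 4, 7 and 3, beside 257 of all 20642 genes. In that fit 16 of the 22 fibroblast genes had an unadjusted p under 0.05 in edgeR, the only tool run without that library. C1qc was 8.25 ± 2.12 and 8.83 ± 0.896 CPM in C57BL/6J males (difference 2.21, SE 0.37, adjusted p = 0.000456), and Col6a3 14.7 ± 2.6 and 17 ± 5.87 CPM (1.46, SE 0.36, adjusted p = 0.00932). Rest was 2.43 ± 0.472 and 2.94 ± 0.924 CPM (1.37, SE 0.36, adjusted p = 0.0113). Col6a3 and Rest did not pass without replicate 3 on 44% fat of NZO/HlLtJ (0.0864 and 0.115), nor without replicate 1 on 10% fat (0.0668 and 0.062), and Col6a3 did not without replicate 2 on 10% fat (0.0502). Mitosis genes had a median of 1.00 in C57BL/6J males, where 3 of 28 rose, and none of the 28 differed between the strains in edgeR (2 at an unadjusted p under 0.05; 0 in DESeq2 and 2 in limma). Lymphocyte genes had a median of 3.30 in C57BL/6J males with none passing, and 1 of 20 differed, Cd79a. Insulin took 10% to 11.4% of counts in C57BL/6J males on 10% fat and 8.57% to 12.5% on 44% fat. The acinar share there was 2.12% to 9.61% and 3.11% to 16.5%, a range that overlaps that of the NZO/HlLtJ males on each diet.

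**Figure D5:**
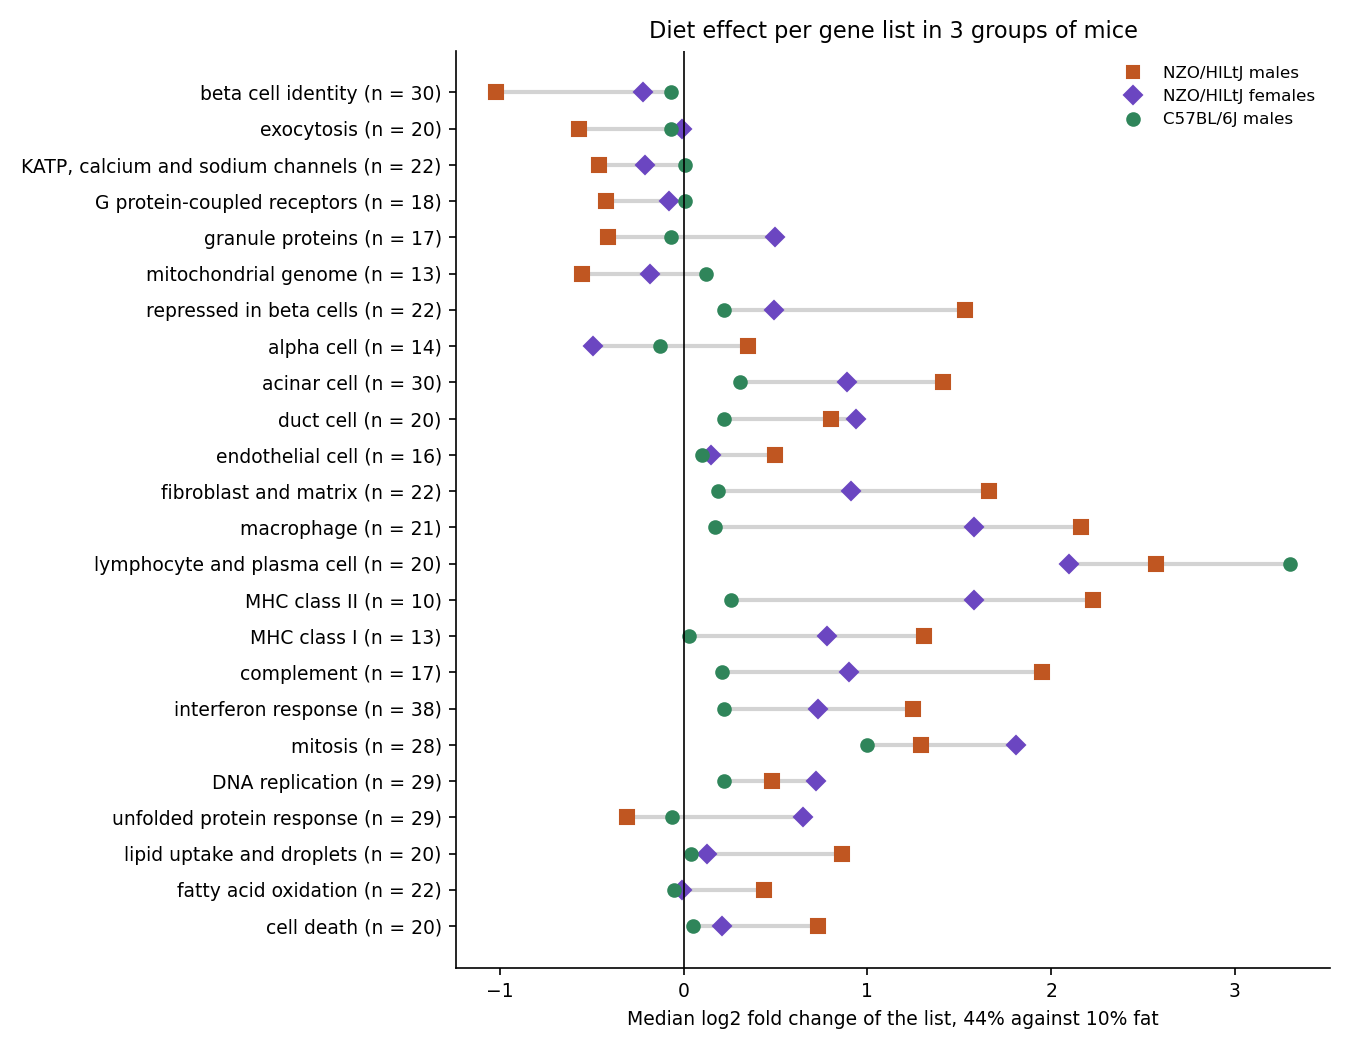
Median log2 difference, 44% minus 10% fat (horizontal axis), of the tested genes of 24 lists in NZO/HlLtJ males (orange squares), NZO/HlLtJ females (purple diamonds) and C57BL/6J males (green circles). Beta cell identity genes lie at -1.02, -0.22 and -0.07, macrophage genes at 2.16, 1.58 and 0.17, and the endoplasmic reticulum genes at -0.31, 0.65 and -0.06.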

How the data were processed

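PolyA RNA of islets was made into libraries with a poly-A selecting kit and sequenced as 150 bp paired-end reads, per the labels' protocols. The authors deposited estimated counts per gene, of which 23.6% are not whole, and log2 values from a variance-stabilizing transform, with DESeq2 and GRCm38 named in the submitters' processing notes; neither an aligner nor a counter is given in the sources used here. Values were rounded to whole counts, genes filtered by expression (20306 of 22904 kept) and scaled by TMM. One quasi-likelihood model of 12 groups over 45 libraries was fitted in edgeR 4.0.16 (R 4.3.3), with Benjamini-Hochberg adjustment over all tested genes. Depth was 77972575 to 90624632 counts per NZO/HlLtJ male library, which limits low genes most. Alternatives were RLE scaling, library totals, other filters, DESeq2 1.42.0, limma 3.58.1 on the deposited log2 values, the compared groups alone, a term for code series or acinar score, and leaving out each library; the earlier quasi-likelihood option was chosen after seeing the data. The analysis was tested on simulated data. The members and the 49 gene lists were chosen with earlier results of these data known. Genes are named by the 12 largest changes each way that pass without replicate 3 on 44% fat, do not overlap and average at least 1 CPM, the 6 largest differences each way between diet effects, and, per list, the first 4 and the 4 of smallest p, with other members as values; Xist, Ddx3y and Nnt check labels. Some genes that the rule names are not reported here. Of 919 list entries, 898 matched a gene and 896 were tested.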

Additional observations from a re-analysis of the deposited data

Results flagged for a closer look

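The diet effect, 44% minus 10% fat, differed between NZO/HlLtJ males and another group in 23 gene and group pairs named by size, by the test of the difference itself. Values are log2 differences of the effects with SE and adjusted p from edgeR's quasi-likelihood test, and means are given ± SD over 4 libraries.

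Against NZO/HlLtJ females, 6 genes had a higher effect in males. Adcy1, an adenylyl cyclase, differed by 2.90 (SE 0.58, adjusted p = 0.00248), with 1.15, 2.08 and 2.33 CPM on 10% fat and 4.35, 5.6 and 14.9 CPM on 44% fat in males and means of 5.79 ± 3.42 and 3.48 ± 1.04 CPM in females. Hpse, heparanase, differed by 2.59, Kcnc4, a potassium channel, by 2.32, Gfod1 by 2.13, Lrrn3 by 1.93 and Wscd2 by 1.91. The fitted effect of all 6 was above 0 in males, and in females it was below 0 for all but Gfod1, at 0.09. Without replicate 3 on 44% fat, the male effect itself did not pass for Hpse (adjusted p = 0.163), Kcnc4 (0.205) and Lrrn3 (0.125). It passed for Adcy1, Gfod1 and Wscd2. Replicate 1 of Hpse in males was 3.09 CPM on 10% fat and 3.16 CPM on 44% fat.

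A lower effect in males was seen in 6 other genes. C2cd4a, a nuclear protein of islets that responds to inflammation, differed by -4.45 (SE 0.69, adjusted p = 0.000263), with 7, 8.05 and 16.4 CPM and 5.93, 1.67 and 1.18 CPM in males and 2.42 ± 0.451 and 14.8 ± 10.3 CPM in females. Cib3 differed by -3.58, Krtap16-1 by -3.13, Rasd1 by -2.84, Inhba, a subunit of activin, by -2.46 and Slc14a2, a urea transporter, by -2.37. With replicate 3 on 44% fat left out, the male effect itself did not pass for C2cd4a (adjusted p = 0.07), Krtap16-1 (0.0782), Inhba (0.285) and Slc14a2 (0.0959). It passed for Cib3 and Rasd1.

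Against C57BL/6J males, 5 of the genes reported had a higher effect in NZO/HlLtJ males. Cd79a differed by 3.97 (SE 0.91, adjusted p = 0.00505); in C57BL/6J males it was 4.12 ± 0.799 and 4.31 ± 2.71 CPM. Acot1 differed by 3.06, Ttc25 by 2.56, Ramp1, a coreceptor for calcitonin peptides, by 2.38 and Aqp4, a water channel, by 2.37. Aqp4 was 8.1, 19.6 and 41.3 CPM on 10% fat and 128, 134 and 97.2 CPM on 44% fat in NZO/HlLtJ males, and 20.7 ± 4.33 and 20.9 ± 1.43 CPM in C57BL/6J males.

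A lower effect in NZO/HlLtJ males was seen for Cib3 (-4.94), Cyp4f39 (-3.68), T2 (-3.42), Otoa (-3.22), Rasd1 (-3.10) and Crhr1 (-2.68), the last a receptor for corticotropin-releasing hormone. Cib3, a calcium binding protein, was 1.98, 2.44 and 0.481 CPM on 10% fat and 0.0658, 0.0794 and 0 CPM on 44% fat in NZO/HlLtJ males, beside 4.56 ± 0.282 and 4.4 ± 0.538 CPM in C57BL/6J males and 2.62 ± 0.469 and 0.978 ± 0.511 CPM in NZO/HlLtJ females. Both sets of differences use the NZO/HlLtJ male libraries.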

How the results depend on the processing

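The counts of genes higher (3451) and lower (3067) in NZO/HlLtJ males stayed within 1.5 times of these values under RLE scaling, DESeq2, limma, both other filters, the terms for code series and acinar score and the earlier quasi-likelihood option, which was chosen after seeing the data. Scaling by library totals left 965 lower beside 2343 higher, and limma gave 4003 higher and 2237 lower. A fit of the compared groups alone gave 2065 higher and 653 lower, with fewer samples to estimate the spread. For the difference from females (897 and 1133), DESeq2 gave 1492 higher and 1135 lower, RLE 1152 and 927, limma 1581 higher, library totals 206 and 54, the groups alone 69 and 62, and the code series term 1781 lower. Library totals also moved the median of all genes in that difference from -0.001 to 0.157. For the difference from C57BL/6J males (1155 and 1095), limma gave 2092 higher, library totals 152 and 99, the groups alone 439 and 220, and the code series term 1750 lower. Beyond fewer samples, the cause was not tested.

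Leaving out 1 library at a time gave 1852 to 3785 genes higher and 1391 to 3458 lower in males, the lowest of both without replicate 3 on 44% fat and 2292 higher without replicate 1 on 10% fat. The difference from females ranged from 159 to 1188 higher and 172 to 1397 lower. The lowest were without replicate 3 of the males on 44% fat; without replicate 2 of the males on 10% fat they were 545 and 752, and without replicate 2 of the females on 44% fat 486 and 618. The difference from C57BL/6J males ranged from 257 to 1885 higher and 289 to 1925 lower, lowest without the same male library and highest without replicate 3 of the NZO/HlLtJ males on 10% fat. It was 325 and 431 without replicate 1 on 10% fat, 526 and 581 without replicate 2, and 671 and 723 without replicate 2 of the C57BL/6J males on 10% fat.

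Of the values of single named genes under all alternatives, 3260 kept direction and side of the threshold, 189 no longer passed, 22 newly passed and 24 changed sign. All genes that changed sign had not passed. Cpa1 was -0.37 with the acinar term, Sst -0.01 with that term and -0.04 with library totals, Stx1a -0.00 with library totals, and Il6 0.02 with RLE, 0.31 with code series and 0.01 with limma. With 1 library left out, Chgb ranged from -0.04 to 0.93, Hnf4a from -0.46 to 0.01, Il6 from -0.56 to 0.64, Mx2 from -0.05 to 1.16, Neurog3 from -0.10 to 0.21, Sst from -0.13 to 0.10, Stx1a from -0.02 to 0.13 and Tnf from -0.27 to 1.38.

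Some gene lists also moved by over 1.5 times. In a fit of the compared groups alone, 17 of 30 beta cell identity genes fell, and 2 endothelial, 15 mitosis, 11 DNA replication, 6 lipid and 7 cell death genes rose. With library totals, 3 endothelial and 11 DNA replication genes rose. Of the channel genes 3 fell in each of these fits, and of the genes of the mitochondrial genome 1 fell with library totals and none in the compared groups alone. Of 20 lymphocyte genes, 8 rose in DESeq2, 9 with code series or library totals and 7 under the stricter filter or the earlier option. Without replicate 1 on 10% fat, 6 duct, 6 lymphocyte, 8 chemokine and 6 lipid genes rose, and 1 mitochondrial gene and 6 channel genes fell. Without replicate 2 on 10% fat, 7 duct, 5 endothelial, 6 lymphocyte and 15 mitosis genes rose, and 5 mitochondrial genes fell, as they did without replicate 2 on 44% fat.

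No paired analysis was possible because the labels number no replicates: the numbers used here follow the order of the samples and pair nothing. Genes under about 1 CPM, among them most lymphocyte genes on 10% fat, rest on the fewest reads, and the 3 libraries per diet limit every test.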
